A study of Mus musculus with 6 samples.

Results

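The transcripts described here are those of 8 genes of cholesterol synthesis and its feedback, *Hmgcs1*, *Idi1*, *Fdps*, *Fdft1*, *Sqle*, *Cyp51*, *Dhcr7* and *Insig1*. The samples are described by the study as primary myoblasts of WT and *Rev-/-* mice. The members were taken as all probes of the expression array that carry 1 of these gene symbols, and the 8 genes themselves were selected on earlier results of the same 6 arrays, in which lipid and cholesterol synthesis genes had been read by label and array by array. Their values between labels are therefore a description, with no test. Of the 8 genes, 6 had a named probe, 12 probes in all, and 10 of those probes lay above background on at least 3 arrays, so that 6 of 11624 measured genes are members. No probe used here carried the symbols *Hmgcs1*, the HMG-CoA synthase, or *Fdft1*, the squalene synthase, and the levels of these genes were not analysed here.

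The WT mice and the *Rev-/-* mice, which lack the clock repressor Rev-erbα (gene *Nr1d1*) in every cell, were C57BL/6 males aged 6 weeks by the labels, while the study's methods give a younger age for the mice used for isolation. By the study's description, their hind limb myoblasts were passaged and kept in F-10 medium to which FBS (20%) and bFGF (at 5 ng/ml) had been added. No further treatment of either group is given. RNA of 3 WT and 3 *Rev-/-* samples was hybridized to Illumina whole genome bead arrays, 1 sample per array, and values are given as log2 intensity after quantile normalization. The methods call the samples independent, and nothing else pairs a sample with an animal or culture, so that SDs and tests measure the spread between these arrays.

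On each array 20713 to 21900 of 45281 probes lay above background, and *Rev-/-* 1 stood somewhat apart (mean Pearson's r to the remaining arrays 0.983, where each of those had 0.991 or 0.992). The targeted gene *Nr1d1* was above background on 3 arrays, WT 3, *Rev-/-* 1 and *Rev-/-* 3, with levels of 6.59, 6.54 and 7.22 on WT 1 to 3 and 7.01, 6.51 and 7.14 on *Rev-/-* 1 to 3. It was thus not lower on the arrays labelled *Rev-/-*, with a log2 fold change of 0.11 (SE 0.22), and no source used here tells whether the probe lies inside the deletion. The paper reports that the *Rev-erbα* transcript could not be detected in quadriceps of *Rev-/-* mice. Here *Nr1d1* was above background on *Rev-/-* 1 and *Rev-/-* 3, and among the WT arrays on WT 3 only. Its levels thus did not follow the labels, and whether a label is wrong was not tested. All directions below are between arrays as labelled and would change if a label were wrong. Of the myoblast markers *Pax7* and *Myf5* were not above background on any array, and *Met* was on 1, while *Des*, desmin, the brightest of the list, was above background on all 6. So was the muscle commitment factor *Myod1*, at 7.84 to 8.08, which was singled out after its values were seen. Of 12 markers of differentiated muscle 10 were measured, each above background on all 6 arrays. The brightest of them, *Myh8*, a myosin heavy chain, was at 14.48 to 14.68. Their summed intensity ran from 129732 to 134919 on WT and from 129346 to 140318 on *Rev-/-* arrays. Each of these 10 was brighter than *Myod1* on every array, and *Ckm*, muscle creatine kinase, singled out after its values were seen, ran from 13.88 to 14.13. With *Pax7* and *Myf5* not above background, the markers do not bear out a description as proliferating myoblasts alone. The levels below are those of the samples as a whole, and the share of myoblasts in them was not tested.

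Cholesterol is built from acetyl-CoA through HMG-CoA, mevalonate and the isoprenoids farnesyl diphosphate and squalene, and the sterol ring is then trimmed to cholesterol. When sterols in the endoplasmic reticulum run low, the escort protein Scap carries the membrane-bound factor SREBP2 to the Golgi, where site-1 and site-2 proteases free it to activate nearly all genes of the pathway. Insig proteins hold Scap back when sterols are plentiful, and *Insig1* is itself an SREBP target gene. Growing cells need the pathway for new membranes.

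The promoter windows of members are shown first, since SREBP2 acts through sterol regulatory elements beside binding sites of NF-Y and Sp1, and Rev-erbα through the letters AGGTCA. RefSeq entries of build GRCm38.p6, each 250 bases before to 50 bases after an annotated start, were at hand for 5 members with 7 windows, and *Sqle*, *Fdps* and *Fdft1* had no entry in the table used. Capitals mark 3 motifs on either strand, TCACNCCAC (a sterol regulatory element), CCAAT (NF-Y) and AGGTCA (Rev-erb). *Insig1* lies at chr5:28071162-28071461 on the plus strand, *Cyp51* at chr5:4104648-4104947 on the minus strand, *Idi1* at chr13:8885356-8885655 on the plus strand, and the third of 3 *Dhcr7* windows at chr7:143829964-143830263 on the plus strand.
Insig1: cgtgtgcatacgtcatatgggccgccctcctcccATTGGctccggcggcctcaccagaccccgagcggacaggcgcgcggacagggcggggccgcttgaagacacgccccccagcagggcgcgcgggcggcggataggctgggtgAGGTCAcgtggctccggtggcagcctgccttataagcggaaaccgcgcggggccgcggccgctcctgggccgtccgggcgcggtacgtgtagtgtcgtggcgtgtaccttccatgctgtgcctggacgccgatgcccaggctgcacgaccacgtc
Cyp51: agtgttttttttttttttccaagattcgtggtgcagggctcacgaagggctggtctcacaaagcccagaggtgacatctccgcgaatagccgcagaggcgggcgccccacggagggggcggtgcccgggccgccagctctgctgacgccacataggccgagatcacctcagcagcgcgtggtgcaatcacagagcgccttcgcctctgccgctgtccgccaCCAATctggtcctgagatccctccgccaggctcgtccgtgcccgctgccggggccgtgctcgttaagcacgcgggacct
Idi1: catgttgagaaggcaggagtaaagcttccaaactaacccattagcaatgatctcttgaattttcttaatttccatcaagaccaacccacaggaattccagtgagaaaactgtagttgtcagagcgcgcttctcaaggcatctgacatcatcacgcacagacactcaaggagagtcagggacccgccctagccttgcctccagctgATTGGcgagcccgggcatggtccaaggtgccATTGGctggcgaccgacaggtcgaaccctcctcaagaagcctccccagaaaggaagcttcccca
Dhcr7: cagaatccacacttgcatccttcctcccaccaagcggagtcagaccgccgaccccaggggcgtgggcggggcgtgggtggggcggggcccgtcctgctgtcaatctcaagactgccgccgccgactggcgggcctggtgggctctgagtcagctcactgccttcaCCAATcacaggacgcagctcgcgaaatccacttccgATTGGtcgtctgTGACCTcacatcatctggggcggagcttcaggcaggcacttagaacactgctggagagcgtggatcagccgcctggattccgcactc

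All 5 of these members held CCAAT in at least 1 window, against 41.1% of 27025 genes with a window and 42.9% of the 9365 such genes measured on the arrays. The Sp1 box GGGCGG was also present in all 5, against 66.2% of the measured genes. The letters TCACNCCAC occurred in 1 member, *Hmgcs1*, as TCACCCCAC starting 137 bases before its start site, and in 1.4% of measured genes. The *Hmgcs1* window is not printed above. AGGTCA was found in 3 of the 5, *Hmgcs1*, *Dhcr7* and *Insig1*, against 14.8% of measured genes. Its longer form TNAGGTCA, which contains AGGTCA, was found in *Dhcr7* and *Insig1*, against 3.92%. In *Insig1* the match TGAGGTCA shares its last bases with an E-box, CACGTG, the element bound by clock activators. An E-box was also found in another *Dhcr7* window, so that 2 of the 5 members held one, against 11.4% of measured genes and 2 of 12 other enzymes of the pathway. A match of letters is a description of the window and not a binding site. Among 12 other enzymes of the pathway with a window, 11 held CCAAT, 11 held GGGCGG, 0 held AGGTCA and 0 held TCACNCCAC. A window without the letters TCACNCCAC can still hold a sterol regulatory element of other letters, which was not searched for.

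*Idi1* (chr13:8885606-8892396 in GRCm38.p6, as all gene positions below), whose product isomerizes isopentenyl diphosphate, had a log2 intensity of 6.90, 6.90 and 6.89 on WT 1 to 3 and of 6.78, 6.80 and 6.87 on *Rev-/-* 1 to 3. It was the only one of the 6 measured members in which the labels did not overlap, lower on all 3 *Rev-/-* arrays, with means of 6.90 ± 0.0080 (SD, n = 3) and 6.82 ± 0.046 (SD, n = 3). Labels did not overlap in 8.1% of all genes measured. The log2 fold change of *Idi1* was −0.077 (SE 0.057), and its whole range of 0.12 lay just over the background limit of the arrays, which ran from 6.65 to 6.77 on the deposited values.

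*Fdps* (chr3:89093588-89101967) encodes farnesyl diphosphate synthase, which makes the branch point of sterols and protein prenyl groups. Its brighter probe was at 9.84, 9.73 and 9.28 on WT 1 to 3 and at 9.20, 10.03 and 9.60 on *Rev-/-* 1 to 3, so that *Rev-/-* 2 was the highest array and *Rev-/-* 1 the lowest. The means were 9.62 ± 0.29 (SD, n = 3) and 9.61 ± 0.42 (SD, n = 3), with a log2 fold change of −0.0047 (SE 0.23). The 0.84 that separated *Rev-/-* 1 from *Rev-/-* 2 was far larger than the difference between labels. The second probe of *Fdps* went another way, at 7.10, 6.82 and 6.87 on WT 1 to 3 and 6.90, 6.77 and 6.88 on *Rev-/-* 1 to 3, and was lowest where the first was highest.

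*Sqle* (chr15:59315092-59331193), squalene epoxidase, which adds the oxygen needed for ring closure, varied most among the members. Its brightest probe was at 9.32, 9.18 and 8.59 on WT 1 to 3 and at 8.47, 9.20 and 8.52 on *Rev-/-* 1 to 3. WT 1, WT 2 and *Rev-/-* 2 lay close together and 0.59 above the other 3 arrays, so that each label held both high and low arrays. Label means were 9.03 ± 0.39 (SD, n = 3) and 8.73 ± 0.41 (SD, n = 3), a log2 fold change of −0.30 (SE 0.25) or 0.811 of the WT level, which is smaller than the SD within either label. From lowest to highest array *Sqle* spanned 1.81-fold, and 1.82% of all genes had a larger SD over the 6 arrays. A second *Sqle* probe was high on the same 3 arrays, at 7.22 and 7.27 on WT 1 and 2 and 7.38 on *Rev-/-* 2, and ran from 6.92 to 7.05 on the other 3. The third was not above background on any array.

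*Cyp51* (chr5:4080674-4104697), lanosterol demethylase, the first step after ring closure, was at 7.99, 7.94 and 7.63 on WT 1 to 3 and at 7.39, 8.11 and 7.67 on *Rev-/-* 1 to 3. The highest and the lowest array again carried the same label, *Rev-/-* 2 and *Rev-/-* 1, and were 1.64-fold apart. The means were 7.85 ± 0.19 (SD, n = 3) for WT and 7.72 ± 0.36 (SD, n = 3) for *Rev-/-*, and the log2 fold change was −0.13 (SE 0.18). Of all genes, 5.16% had a larger SD over the arrays than *Cyp51* and 2.94% a larger one than *Fdps*.

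*Dhcr7* (chr7:143823167-143848410), the reductase of the last step to cholesterol, had a narrower range, at 7.23, 7.31 and 7.13 on WT 1 to 3 and at 7.10, 7.15 and 6.97 on *Rev-/-* 1 to 3. WT 3 lay below *Rev-/-* 2, and the other WT arrays lay above all 3 *Rev-/-* arrays. The log2 fold change was −0.15 (SE 0.076), between means of 7.22 ± 0.090 (SD, n = 3) and 7.07 ± 0.089 (SD, n = 3). Here the difference between labels was larger than the SD within them, although the labels overlapped.

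*Insig1* (chr5:28071412-28078662), a brake on SREBP2 processing, had 3 probes above background. The brightest was at 7.96, 8.07 and 7.84 on WT 1 to 3 and at 7.67, 7.93 and 7.80 on *Rev-/-* 1 to 3, with means of 7.96 ± 0.12 (SD, n = 3) and 7.80 ± 0.13 (SD, n = 3) and a log2 fold change of −0.15 (SE 0.093). The other 2 probes had log2 fold changes of −0.17 (SE 0.082) and −0.19 (SE 0.11), and all 3 were lowest on *Rev-/-* 1. On *Rev-/-* 2 all 3 *Insig1* probes lay inside the range of the WT arrays. A last *Insig1* probe was not above background on any array.

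**Figure D1:**
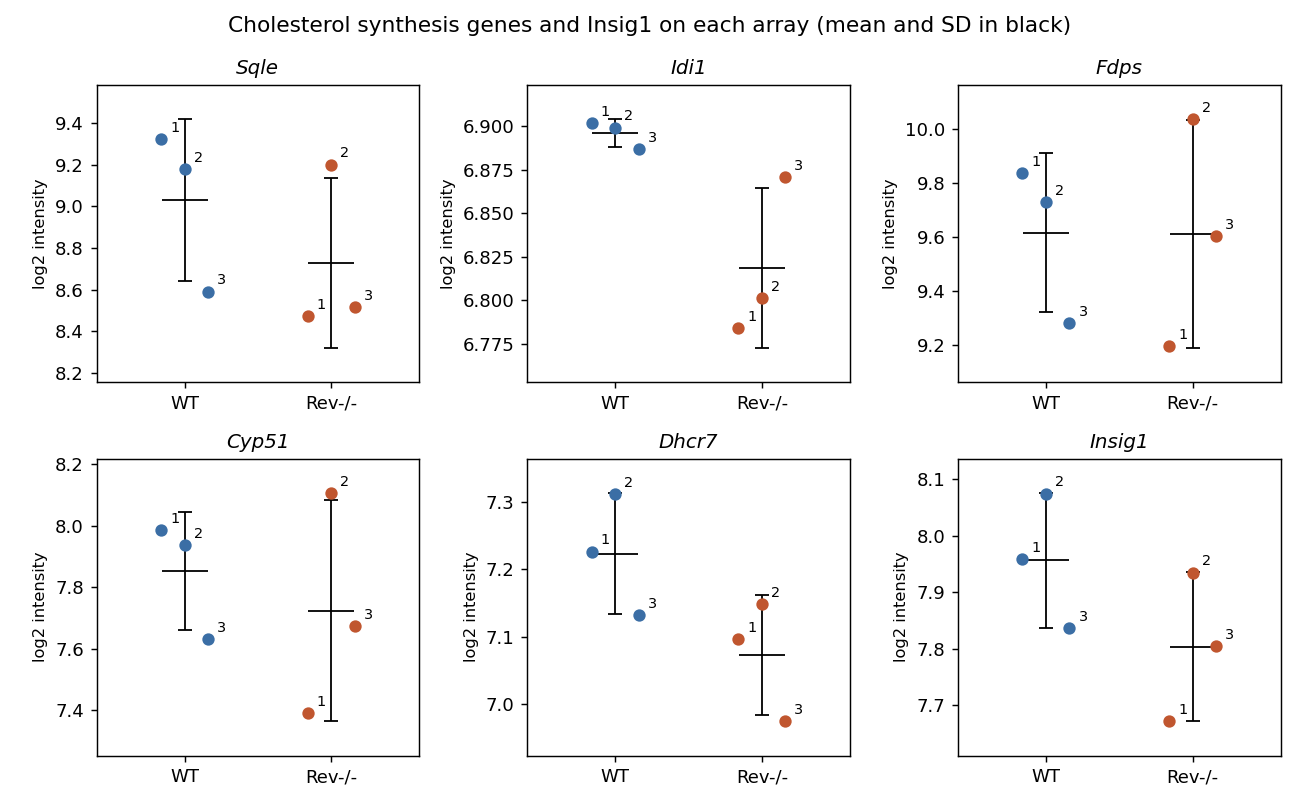
Log2 intensity (vertical axis, its own scale in each panel) of the brightest probe of each measured member on the 3 WT arrays (blue) and the 3 *Rev-/-* arrays (orange), numbered by replicate, with the label mean and SD in black. Labels overlap in 5 of the 6 panels, and WT 3 and *Rev-/-* 2 lie nearest to the arrays of the other label in *Sqle*.

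Between labels all 6 measured members were on average lower on the *Rev-/-* arrays, as were 6072 of all 11624 genes. Their log2 fold changes ran from −0.30 to −0.0047 around a median of −0.14, beside a median of −0.0050 over all genes. Calls needed a limma adjusted p no higher than 0.05 together with a 1.5-fold difference, and 0 of the 6 members were called, as 0% of all genes were. At an unadjusted p no higher than 0.05 there were again 0 members, against 3.17% of all genes (369). The smallest adjusted p of any gene by limma was 0.997, and it was 0.0759 without *Rev-/-* 2. All 6 members lay within 1.5-fold. The median of the members was −0.073 without *Rev-/-* 1 and 4 of the 6 were then lower, and it was −0.089 without WT 2 and −0.22 without *Rev-/-* 2.

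Array by array most members moved together across the labels, though not to the same extent. *Sqle*, *Fdps* and *Cyp51* had ranges of 0.85, 0.84 and 0.71, against 0.12 to 0.40 in the rest, and so weigh most in the mean of the members. *Dhcr7* lay close to its own mean on *Rev-/-* 2 (0.00062) and WT 3 (−0.016), and *Idi1* parted by label. *Rev-/-* 1 was the lowest array for 5 of the 6 members, and for *Dhcr7* it was the second lowest. The mean of the members, each taken relative to its own mean over the arrays, was 0.18 on WT 1, 0.16 on WT 2 and 0.18 on *Rev-/-* 2, and −0.13 on WT 3, −0.26 on *Rev-/-* 1 and −0.12 on *Rev-/-* 3. On WT 1 and WT 2 all 6 members were above their own mean and on *Rev-/-* 2 there were 5, all but *Idi1*. On WT 3 and *Rev-/-* 3 only *Idi1* was, and on *Rev-/-* 1 there were 0. WT 3, *Rev-/-* 1 and *Rev-/-* 3, where the mean of the members was below 0, were also the 3 arrays with *Nr1d1* above background, at 7.22, 7.01 and 7.14. What this shared pattern comes from was not tested. The amplitude differed among members, from a range of 0.12 in *Idi1* to 0.85 in *Sqle*, and the median SD over the 6 arrays was 0.20 for the members and 0.11 for all genes.

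**Figure D2:**
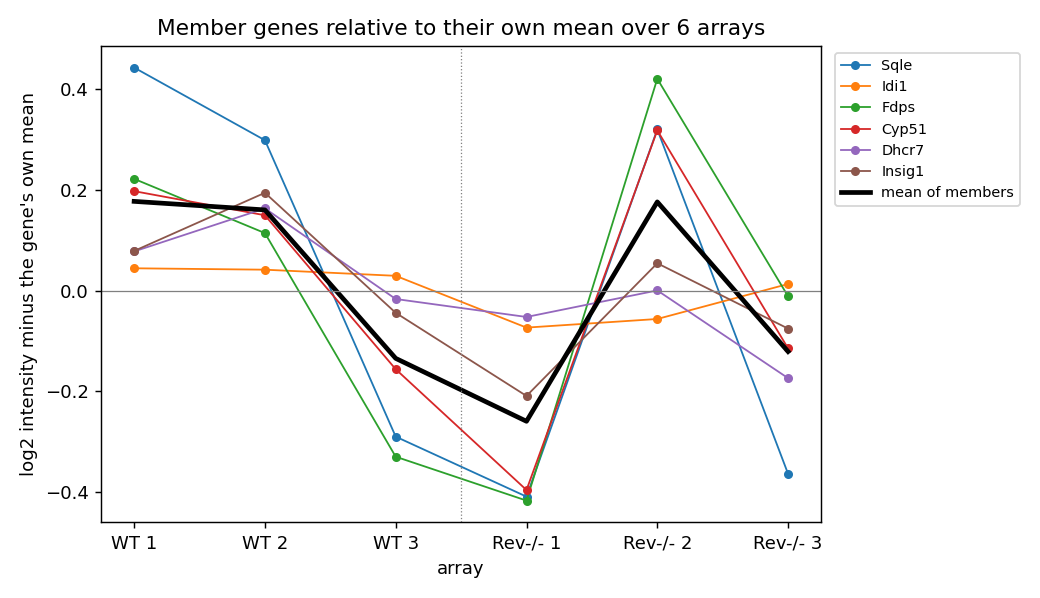
Log2 intensity of each measured member minus its own mean over the 6 arrays (vertical axis) on each array (horizontal axis, WT left and *Rev-/-* right of the dotted line), with the mean of the members in black; lines only join the points of a gene. The mean is between 0.16 and 0.18 on WT 1, WT 2 and *Rev-/-* 2 and between −0.26 and −0.12 on WT 3, *Rev-/-* 1 and *Rev-/-* 3.

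The rest of the synthesis pathway was read from a list of 21 enzymes, of which 14 were measured, 9 of them no members. These 9 had a median log2 fold change of −0.033, 6 lower and 3 higher on the *Rev-/-* arrays, and with limma 0 were called, as were 0 at an unadjusted p up to 0.05. *Msmo1*, a sterol oxidase that acts after *Cyp51*, was at 8.24, 8.20 and 8.004 on WT 1 to 3 and at 7.69, 8.08 and 7.92 on *Rev-/-* 1 to 3. Its log2 fold change of −0.25 (SE 0.11) had the smallest p of the list (limma, adjusted p = 0.997; exact permutation p = 0.2, 2-sided, where 3 arrays against 3 cannot give less than 0.1). *Hsd17b7*, a ketosteroid reductase of the same stage, was at −0.18 (SE 0.16).

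Upstream of the measured members *Pmvk* and *Mvd*, enzymes of the mevalonate branch, were at 0.097 (SE 0.12) and 0.044 (SE 0.12). *Lss*, the cyclase that closes the sterol ring after the step of *Sqle*, was at 0.047 (SE 0.073). *Tm7sf2* and *Lbr*, sterol reductases, were at −0.055 (SE 0.070) and −0.033 (SE 0.18). *Ebp*, a sterol isomerase, was at −0.054 (SE 0.098) and *Nsdhl*, a sterol dehydrogenase, at −0.020 (SE 0.094). None of these enzymes parted the labels. *Mvk* was not above background on any array, *Sc5d* on at most 2, and *Acat2* had no probe of that symbol here.

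Of 11 genes of SREBP processing 9 were measured, *Insig1* among them, with a median log2 fold change of −0.048 and 0 called. *Srebf2*, which encodes SREBP2, was at 8.27, 8.37 and 8.20 on WT 1 to 3 and at 7.96, 8.42 and 7.98 on *Rev-/-* 1 to 3. *Rev-/-* 2 was thus its highest array and *Rev-/-* 1 its lowest, as in *Cyp51* and *Fdps*, and the log2 fold change was −0.16 (SE 0.13). *Insig2*, a second Insig, was at 8.97, 9.08 and 8.48 on WT 1 to 3 and at 8.59, 9.19 and 7.79 on *Rev-/-* 1 to 3, a difference of −0.32 (SE 0.34).

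*Scap* was at −0.022 (SE 0.077), *Mbtps1*, the site-1 protease, at 0.094 (SE 0.099) and *Mbtps2*, the site-2 protease, at −0.11 (SE 0.058). *Mbtps2* was above background on 4 arrays and its labels did not overlap (exact permutation p = 0.1, 2-sided, the smallest possible). The ubiquitin ligases *Rnf139*, *Rnf145* and *Marchf6*, which act in the endoplasmic reticulum, were at −0.045 (SE 0.056), 0.093 (SE 0.13) and −0.048 (SE 0.12). *Srebf1* was above background on at most 2 arrays.

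**Figure D3:**
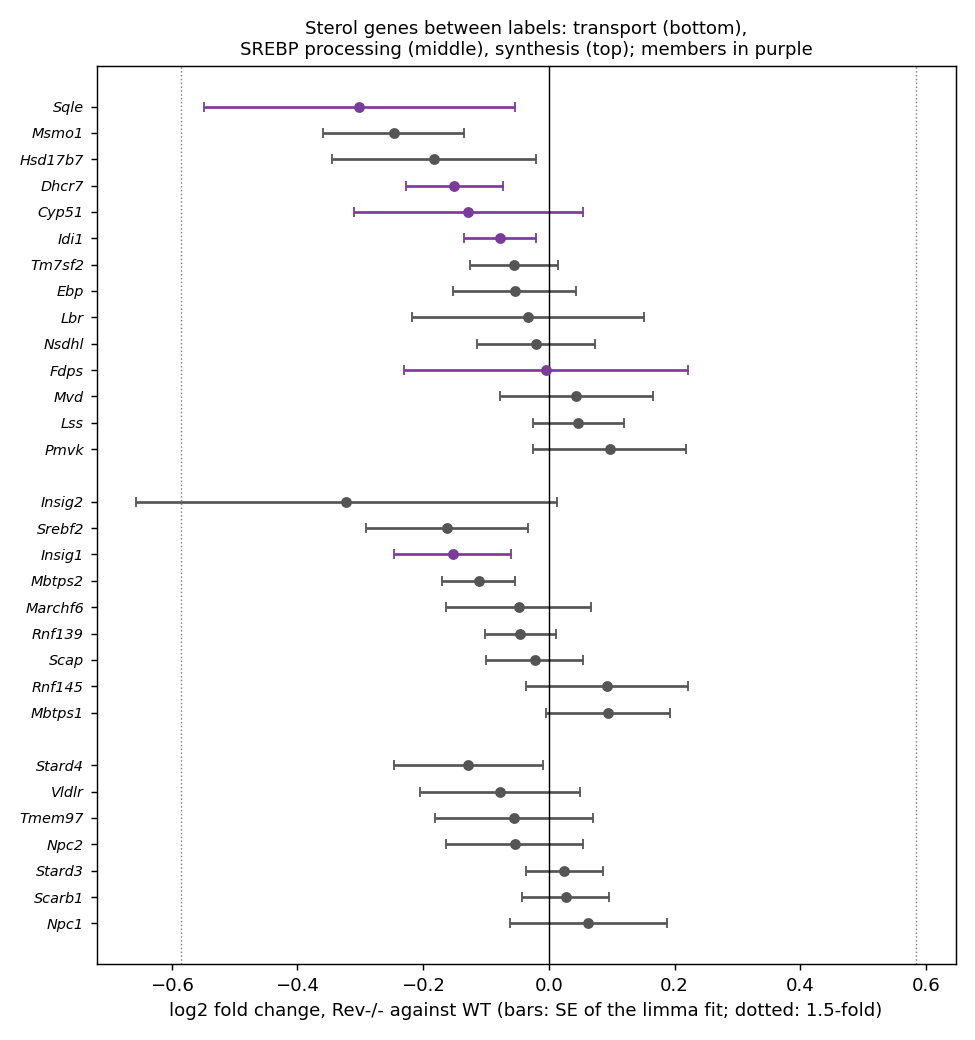
Log2 fold change of *Rev-/-* against WT (horizontal axis) with the SE of the limma fit for each measured gene of sterol synthesis (top), SREBP processing (middle) and sterol transport (bottom), members in purple and other genes in grey; dotted lines mark 1.5-fold. All points lie between −0.32 and 0.097, inside the dotted lines.

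Among 10 genes of sterol uptake and transport 7 were measured, with a median of −0.054 and 0 called. *Stard4*, a sterol carrier, had a log2 fold change of −0.13 (SE 0.12) and *Vldlr*, a lipoprotein receptor, −0.078 (SE 0.13). The 5 measured of 11 genes of LXR signalling, sterol efflux and esterification had a median of 0.038 and 0 called, with *Apoe*, the carrier of lipid efflux, at 0.37 (SE 0.27) and *Cyp27a1*, a sterol hydroxylase, at 0.050 (SE 0.097). Prenyl transfer and other isoprenoid genes had a median of −0.082 over 7 measured of 10, 0 called, with *Rabggta*, a prenyltransferase subunit, at 0.11 (SE 0.071) and *Dhdds*, which lengthens isoprenoid chains, at −0.10 (SE 0.077).

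Fatty acid synthesis, which SREBP1 drives, was the nearest other pathway. For its 14 measured genes of 16 the median was −0.067 for the log2 fold change between labels and 0.17 for the SD over the arrays, with 0 called, and the difference from the members was not tested. *Fads1*, a fatty acid desaturase, was at −0.14 (SE 0.078) and *Me1*, the malic enzyme, at −0.18 (SE 0.10). Over all 6 pathway lists, 50 genes that are no members were measured, 35 of them lower and 15 higher on the *Rev-/-* arrays, with 0 at an unadjusted p up to 0.05. In 3 of the 50, *Mbtps2*, *Rnf139* and *Fads1*, the labels did not overlap, against the 8.1% of all genes.

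The genes most like the mean profile of the members were sought among 11618 other genes by Pearson's r over the 6 arrays, as a description with no test. The 5 with the highest r were *Myom3*, a protein of the muscle M-band, at 0.995, *Calr*, the endoplasmic reticulum chaperone calreticulin, at 0.990, *Dbp*, a clock output factor, at 0.988, *Dpp4*, a cell surface peptidase, at 0.988, and *Ccdc51* at 0.984. *Dbp* was at 10.47, 10.56 and 9.84 on WT 1 to 3 and at 9.51, 10.63 and 9.73 on *Rev-/-* 1 to 3, the same arrays high and low as in *Sqle*. The 5 with the lowest r were *Gmfg*, an actin regulator of blood cells, at −0.997, *Ptpn6*, a phosphatase of blood cells, at −0.993, *Bdh2*, a dehydrogenase, at −0.991, *Map3k11*, a kinase of the MAPK cascade, at −0.991 and *Cd33*, a receptor of myeloid cells, at −0.991. *Cd33* was near background, with levels from 6.75 to 6.94 over the arrays. An r of at least 0.9 was found for 223 of the 11618 genes.

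Among sterol genes the likeness was uneven. Of the 9 enzymes that are no members, 3 (*Tm7sf2* at 0.917, *Msmo1* at 0.910 and *Hsd17b7* at 0.852) lay in the top 10% of genes by r. Of these *Tm7sf2* was near background, with levels from 6.83 to 7.01 over the arrays. *Stard4* had an r of 0.951 and *Srebf2* one of 0.892. *Npc1*, which exports cholesterol from lysosomes and was singled out after its values were seen, had an r of −0.966, with levels of 9.88, 9.90 and 10.13 on WT 1 to 3 and 10.19, 9.78 and 10.13 on *Rev-/-* 1 to 3. *Lss* and *Lbr*, at −0.360 and −0.439, did not follow the members either.

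**Figure D4:**
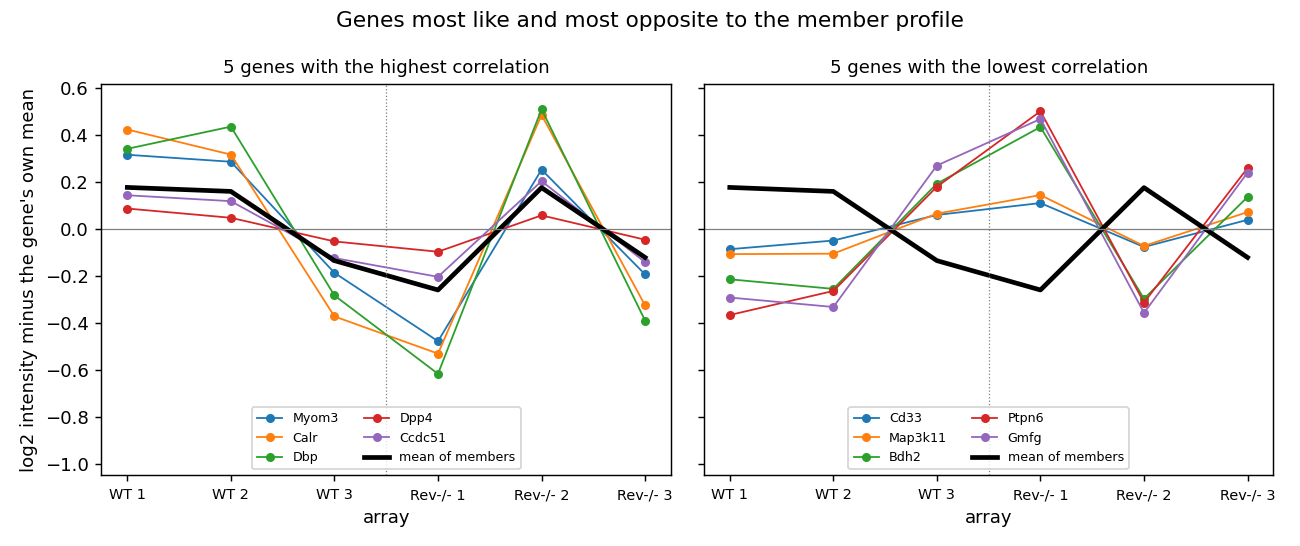
Log2 intensity minus the gene's own mean over the 6 arrays (vertical axis) on each array (horizontal axis) for the 5 genes with the highest (left) and the 5 with the lowest (right) correlation with the mean of the members, drawn in black; lines only join the points of a gene. *Dbp* and *Calr* are high on WT 1, WT 2 and *Rev-/-* 2 and *Gmfg* and *Ptpn6* on the other 3 arrays, in both labels.

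Markers of other cells also differed between arrays of 1 label. The 7 measured of 8 macrophage markers had a median, each relative to its own mean, of −0.24, −0.26 and 0.27 on WT 1 to 3 and of −0.099, −0.20 and 0.37 on *Rev-/-* 1 to 3, and their summed intensity ran from 1792 to 3415 on WT and from 1886 to 3842 on *Rev-/-* arrays. WT 3 and *Rev-/-* 3, where the members were low, had the highest macrophage level, and *Mrc1*, the brightest gene of the list, was at 9.77 and 9.83 there and from 9.30 to 9.46 on the other arrays. On *Rev-/-* 1, where the members were lowest, 9 measured of 10 neutrophil markers summed to 18213, against 1036 to 3473 on WT and 1122 and 2673 on *Rev-/-* 2 and 3. *S100a8*, the brightest of them, was at 13.06 on *Rev-/-* 1 and from 7.52 to 10.72 on the other arrays. The 6 measured of 9 bone and cartilage markers summed to 16015 there, against 927 to 3112 on the other 5 arrays. The cartilage collagen *Col2a1*, the brightest of them on average, was at 12.40 on *Rev-/-* 1 and from 8.51 to 11.29 elsewhere, and the collagenase *Mmp13*, singled out after its values were seen, at 12.47 against 6.86 to 7.70. Of adipocyte markers 5 of 8 were measured and summed to 3328 on WT 1 and to between 934 and 2034 on the other arrays, while *Fabp4* and *Retn* were not above background on any. All 8 endothelial markers were measured, and they summed to 5420, 5312 and 6277 on WT 1 to 3 and to 6447, 5526 and 6546 on *Rev-/-* 1 to 3, highest on the 3 arrays where the members were low. On *Rev-/-* 1 the 9 fibroblast markers summed to 33935, against 22948 to 27778 on the other arrays. Their median relative to their own means was only 0.0044 there, and from −0.10 to 0.069 elsewhere. The collagen *Col1a1*, singled out after its values were seen, was at 13.89 on *Rev-/-* 1 and from 12.71 to 13.27 elsewhere. *Dcn*, the brightest on average, was at 13.13 there, against 13.09 to 13.27. On *Rev-/-* 1 the 4 measured of 8 red cell markers summed to 33955, against 20336 to 26080. The haemoglobin gene *Hba-a1*, the brightest of them, was at 14.22 to 14.60 over all arrays.

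Liver is a main site of cholesterol synthesis, and the 5 measured of 8 hepatocyte markers summed to 3438 on *Rev-/-* 1 and to between 578 and 949 on the other arrays, with *Ttr*, transthyretin, as the brightest gene, while *Alb* and *Fgb*, albumin and a fibrinogen chain, were not above background on any array. The 12 measured of 16 proliferation genes had a median, relative to their own means, of 0.34 on *Rev-/-* 1 and of −0.13 to −0.0094 on the rest. For 7 measured of 10 myoblast markers it was −0.18 on *Rev-/-* 1, −0.066 on *Rev-/-* 3 and −0.028 on WT 3, and 0.028 to 0.17 on WT 1, WT 2 and *Rev-/-* 2. Fewer cells of a type and less RNA per cell cannot be told apart in such samples. The part of these cells in the levels of the members was not tested. Without *Rev-/-* 1 the log2 fold change of *Cyp51* was 0.039, that of *Fdps* 0.21 and that of *Sqle* −0.17.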

How the data were processed

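RNA of 6 samples described as primary myoblasts, 3 per label, was measured on Illumina bead arrays. Per the study's methods, the authors read the arrays with BeadStudio and background-subtracted and quantile-normalized them with lumi (GenomeStudio, lumi and limma are named in the submitters' processing notes, without versions). The intensity values the authors deposited were linear, with a lowest value of 76.2 to 83.7 and a median of 98.4 to 107 per array, and did not share 1 distribution. A further table of signals and detection p-values has 12 columns named by array position only and was not used.

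Intensities of 45281 probes were quantile-normalized with limma 3.58.1 (R 4.3.3) and log2-transformed. By the array annotation 34885 probes had 1 symbol, 18 several and 10378 none, and 34807 were updated by gene number. Background was the density peak of each array with its dimmer side mirrored, and probes past its 95th percentile on at least 3 arrays were kept (18133 with 1 symbol, 11624 genes, the brightest probe of each). This limit was set from the intensities, since the files pair no detection p-value with a sample. Labels were compared with lmFit and eBayes, Benjamini-Hochberg adjusted over the kept probes. Calls needed an adjusted p no higher than 0.05 together with a 1.5-fold difference, the limits the study names. The steps were tested on simulated data. Members and gene lists were chosen with earlier results of these data known. Named genes were the members, *Nr1d1*, all enzymes and SREBP processing genes measured, in other lists those with an unadjusted p of at most 0.05 or else the 2 of smallest p, the 5 genes most like and most unlike the members, and of marker lists the brightest gene and genes not above background; a gene outside this rule is named as such. Alternatives were other normalizations, normexp, other filters, the mean of a gene's probes, a robust prior with an intensity trend, array weights, replicate number as a blocking factor, other thresholds and leaving out each array. The number of arrays limits the precision.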

Additional observations from a re-analysis of the deposited data

How the results depend on the processing

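With limma 0 genes were called under each of the 18 alternatives run, which include an adjusted p up to 0.1 and, separately, no fold minimum. Of 11624 genes, those at an unadjusted p up to 0.05 by limma numbered 369. They numbered 2239 with array medians aligned, 2688 without normalization, 218 without WT 2 and 734 without *Rev-/-* 2. With no filter there were 761, out of a larger set of 19057 genes. The smallest adjusted p was 0.997, and 0.189 with array medians aligned, 0.162 without normalization and 0.0759 without *Rev-/-* 2. The median log2 fold change of the members kept its direction under all 16 alternatives that give one, from −0.29 on the deposited values without normalization to −0.073 without *Rev-/-* 1. It was −0.24 with array medians aligned and −0.21 with normexp. That of all genes shifted to −0.15 on those values and to −0.11 with array medians aligned, and relative to it the members were at −0.14 in both, as in the main setting at −0.13. The log2 fold change of *Fdps* changed sign under 5 of 16 alternatives, from −0.28 to 0.21, and that of *Cyp51* under 1, without *Rev-/-* 1. *Sqle* ran from −0.54 to −0.15, *Insig1* from −0.34 to −0.088, *Dhcr7* from −0.30 to −0.10 and *Idi1* from −0.20 to −0.059, with no change of sign. Same-numbered arrays of the 2 labels had an r of −0.17, 0.12 and 0.052 between their deviations over all genes, for numbers 1 to 3. Arrays of unlike number ran from −0.25 to 0.15. With deviations from means of 3 arrays, these values cannot tell whether the numbers pair the samples. With the replicate block the median of the members was −0.14 and 0 genes were called. Genes near background, such as *Idi1*, *Mbtps2*, *Rnf139*, *Tm7sf2* and *Cd33*, are limited by signal over background, and 3 arrays per label limit every comparison.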
